A study of Homo sapiens with 6 samples.

Results

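The transcripts described here are those of the cyclin-dependent kinase (CDK) inhibitors, CDKN1A, CDKN1B, CDKN1C, CDKN2A, CDKN2B, CDKN2C, CDKN2D and CDKN3, and of MTAP, the neighbour of CDKN2A and CDKN2B in chromosome band 9p21. Members were all probe sets whose only gene symbol was one of these 9 genes, which gave 22 of the 54613 probe sets tested and 8 of the 19775 genes. CDKN2C was not analysed here, because no probe set was given to it in the annotation used. MDA-MB-231 is an invasive breast cancer line that lacks hormone receptors. It was infected with pLKO.1 lentivirus carrying a short hairpin against GFP (shGFP control, 3 arrays) or against ATAD3A (shATAD3A knockdown, 3 arrays), and RNA was read on Affymetrix U133 Plus 2.0 arrays. ATAD3A encodes an ATPase of the inner mitochondrial membrane. All cells, controls included, had been selected in puromycin at 1 µg/ml for 2 weeks and are labelled passage 2. The question addressed is whether the level of any of these transcripts differed between the shATAD3A knockdown and shGFP control arrays. Effects of the hairpins or the selection other than a lower ATAD3A level were not tested. Nothing in the labels ties a replicate to a culture of its own; the spread behind each p-value is that among these arrays, possibly technical, and the number of arrays limits the precision.

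CDK inhibitors hold back the kinases that drive the cell division cycle. The CIP/KIP proteins p21 (CDKN1A), p27 (CDKN1B) and p57 (CDKN1C) bind several cyclin-CDK complexes, among them cyclin E-CDK2, whereas the INK4 proteins p16 (CDKN2A), p15 (CDKN2B), p18 (CDKN2C) and p19 (CDKN2D) bind CDK4 and CDK6 and keep them from D-type cyclins. CDKN2A also encodes ARF, which restrains MDM2 and so protects p53. CDKN3 is of another kind, a phosphatase that removes the activating phosphate of CDKs and whose transcript is high in dividing cells. MTAP cleaves methylthioadenosine, a by-product of polyamine synthesis, and is often deleted together with CDKN2A and CDKN2B in tumours; the line studied is reported to have lost all 3 genes.

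Expression values are on a log2 scale and differences are knockdown minus control, so that 1 unit is a 2-fold change. The distribution of all values had a large peak at its lower end, here the low mode. Its edge was set at 4.80, the lowest density point within a fixed window of values, and 60.3% of all values lay under that edge. Values under it are taken here to hold little or no signal, which was not tested. Of probe sets under it on all arrays, 1.46% still differed between the groups (limma adjusted p under 0.05). ATAD3A itself read 7.73, 7.78 and 7.80 in control and 7.41, 7.03 and 7.39 in knockdown, a difference of -0.49 ± 0.105 (SE; adjusted p = 0.0129), on the one probe set given to it alone, whose x_at type may cross-hybridise with its paralogs. Of 12 markers of the line, 11 lay above the low mode on all arrays, with SPARC the exception. Of these 12, 6 fell (CAV1, AXL, CAV2, CD44, MSN and FOSL1) and 3 rose (TGFBI, PLAUR and ANXA1) in knockdown, beside 13.9% and 19.7% of all genes; further probe sets of AXL, CD44, PLAUR and ANXA1 disagreed with the brightest. All 10 leukocyte markers measured were below it on all arrays, where CD3D rose and CD14 and LYZ fell, and so were 9 of 10 fibroblast markers, where LUM rose, with COL1A1 above it and higher in knockdown by 1.01 on its brightest probe set. Of 11 hormone receptor and luminal epithelial markers, CDH1, EPCAM, KRT18, ERBB2 and KRT19 rose and GATA3 fell in knockdown, while ESR1, PGR, FOXA1 and TFF3 stayed in the low mode. CDH1 rose most, from a mean of 2.40, in the low mode on all control arrays, to 7.525 in knockdown. EPCAM rose by 1.98, and GATA3 fell by 0.63. The mean level of the 11 markers was between 6.22 and 6.24 on the control arrays and between 7.0 and 7.07 on the knockdown arrays. The part of these marker differences in the results below was not tested.

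Of the 22 member probe sets, 4, from 3 genes, passed the test (limma adjusted p under 0.05), beside 22.4% of all probe sets tested. The promoters of these 3 genes, CDKN1A, CDKN2D and CDKN3, are shown because they are the regulatory starts of the transcripts that moved. Each covers 250 bases before to 50 after the annotated start, 5′ to 3′ on the gene's strand, from RefSeq on GRCh38.p14; 8 of the 9 members had an entry, and CDKN1C had none. Capitals mark 4 short motifs searched on both strands: the GC box GGGCGG, the CCAAT box CCAAT, the cell cycle element TTTGAA known as CHR, and the E box form CAGCTG, which reads the same on both strands.
CDKN1A, chr6:36678464-36678763, plus strand: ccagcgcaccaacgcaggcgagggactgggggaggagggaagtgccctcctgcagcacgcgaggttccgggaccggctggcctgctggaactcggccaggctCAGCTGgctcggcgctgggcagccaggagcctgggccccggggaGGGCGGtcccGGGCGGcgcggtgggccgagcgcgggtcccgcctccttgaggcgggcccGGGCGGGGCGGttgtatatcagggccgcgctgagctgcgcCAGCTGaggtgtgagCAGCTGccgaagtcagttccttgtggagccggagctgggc
CDKN2D, chr19:10568930-10569229, minus strand: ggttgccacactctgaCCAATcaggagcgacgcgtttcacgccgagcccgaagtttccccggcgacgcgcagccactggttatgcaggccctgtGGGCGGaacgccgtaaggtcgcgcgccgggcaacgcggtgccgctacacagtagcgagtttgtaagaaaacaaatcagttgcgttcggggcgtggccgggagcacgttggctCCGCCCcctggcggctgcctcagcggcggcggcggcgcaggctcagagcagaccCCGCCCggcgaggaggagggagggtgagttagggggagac
CDKN3, chr14:54396757-54397056, plus strand: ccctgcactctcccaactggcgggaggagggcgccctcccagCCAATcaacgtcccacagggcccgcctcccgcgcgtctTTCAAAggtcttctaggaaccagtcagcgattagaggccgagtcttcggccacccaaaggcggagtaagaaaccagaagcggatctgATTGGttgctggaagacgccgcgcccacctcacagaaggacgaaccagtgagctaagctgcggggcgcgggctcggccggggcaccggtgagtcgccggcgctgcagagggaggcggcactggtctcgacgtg
The CDKN1A window held 4 GC boxes, 2 of them overlapping, and 3 E boxes, of which 1 begins at position -5 from the start. The CDKN2D window held 3 GC boxes and 1 CCAAT box. The CDKN3 window held 2 CCAAT boxes and 1 CHR element, the latter beginning at position -170 from the start, and no GC box. Among all 35116 promoters of this length in the table, 45% held the GC box, 34.6% the CCAAT box, 15.2% the CHR letters and 17.9% the E box letters. A match is a description of the letters and does not show that a factor binds there.

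CDKN1A, the member with the largest difference, was lower in knockdown than in control. Its probe set 202284_s_at read 10.10, 10.06 and 10.04 in the control arrays and 8.60, 8.58 and 8.57 in the knockdown arrays. The groups stood far apart, with the lowest control array 1.43 above the highest knockdown array and both groups spanning less than 0.1. CDKN1A fell by 1.48 on the log2 scale ± 0.0279 (SE; limma adjusted p = 5.389e-06), or 2.79-fold. It was the only CDKN1A probe set. Of the probe sets above the low mode on all arrays, 1.32% fell as far or farther with an adjusted p under 0.05. CDKN1A encodes p21, the inhibitor through which p53 halts the cycle before DNA synthesis.

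CDKN1B, which encodes p27, read 10.77, 10.92 and 10.77 in control and 11.03, 10.995 and 11.22 in knockdown. Every knockdown array was above every control array, by at least 0.078. The difference of 0.26 ± 0.0743 (SE) missed the threshold in the fit over all probe sets (limma adjusted p = 0.0587) and passed in the fit with 1 probe set per gene (adjusted p = 0.0378). Its 95% interval was 0.077 to 0.45, and the call differed between these fits, which test different numbers of features.

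CDKN1C encodes p57, an imprinted growth inhibitor. Its brightest probe set, 213348_at, read 6.18, 6.32 and 6.55 in control and 5.95, 6.21 and 6.10 in knockdown. The highest knockdown array reached into the control range, so the groups overlapped. The difference was -0.26 ± 0.113 (SE; limma adjusted p = 0.203), with a 95% interval of -0.54 to 0.019. Without control replicate 3 it was -0.16 (adjusted p = 0.411), and with all CDKN1C probe sets averaged, the dim ones included, -0.098 (adjusted p = 0.0707). The other 4 CDKN1C probe sets lay in the low mode on all arrays, at 1.60 to 4.52. One of these, 213182_x_at, had groups that did not overlap and a difference of -0.15 (adjusted p = 0.107). A difference of CDKN1C was not detectable at this number of arrays.

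**Figure D1:**
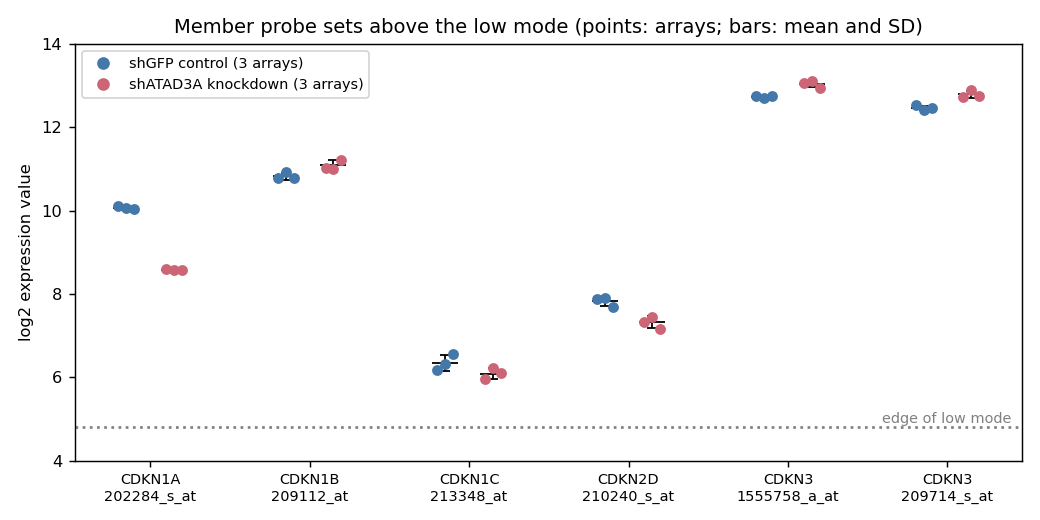
Log2 expression values (vertical axis) of the 6 member probe sets above the low mode, by gene and probe set (horizontal axis). Points are single arrays, 3 control in blue and 3 knockdown in red, and bars give the mean and SD. CDKN1A stands out, with control near 10.1 and knockdown near 8.58, while the CDKN1C groups overlap.

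Among the INK4 genes, CDKN2D was the one measured above the low mode, and it was lower in knockdown. The probe set 210240_s_at read 7.87, 7.90 and 7.69 in control and 7.34, 7.45 and 7.16 in knockdown. All 3 knockdown arrays lay below the lowest control array. CDKN2D fell by 0.50 on the log2 scale ± 0.0912 (SE; limma adjusted p = 0.0108), so that its level dropped by 29.5%. Its other probe set, 213586_at, was in the low mode on every array, between 1.68 and 1.73, with a difference of -0.019 (adjusted p = 0.825). When both probe sets were averaged, the dim one included, the difference shrank to -0.26 and still passed (adjusted p = 0.00668). CDKN2D encodes p19, an inhibitor of CDK4 and CDK6.

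CDKN3 was higher in knockdown on both of its probe sets. On 1555758_a_at it read 12.75, 12.71 and 12.75 in control and 13.05, 13.11 and 12.95 in knockdown. On 209714_s_at it read 12.52, 12.41 and 12.46 in control and 12.74, 12.88 and 12.76 in knockdown. On each probe set every knockdown array exceeded every control array, by at least 0.20 and 0.21. The rises were 0.30 ± 0.0453 and 0.33 ± 0.0525 (SE; limma adjusted p = 0.00509 and 0.00651), or 23.3% and 25.7%. These 2 probe sets share a transcript and are not independent of each other.

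CDKN2A, CDKN2B and MTAP gave no signal above the low mode in either group. All 11 of their probe sets were below 4.80 on all 6 arrays, and their 66 values ran from 1.61 to 2.78. As a yardstick, 21 genes of other tissues taken as silent, such as INS (insulin) and ALB (albumin), read 1.37 to 3.43 on the same arrays, with a median of 2.40. The values of the 3 genes thus lay inside the range of the silent genes. Levels of different probe sets depend on their probes, so this places them near background and gives no order among them.

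The brightest CDKN2A probe set, 211156_at, read 2.51, 2.53 and 2.59 in control and 2.57, 2.54 and 2.58 in knockdown, and the other 2 stayed between 2.08 and 2.48. The brightest CDKN2B probe set, 236313_at, read 2.59, 2.62 and 2.61 in control and 2.65, 2.61 and 2.64 in knockdown. The brightest MTAP probe set, 204956_at, read 2.70, 2.74 and 2.78 in control and 2.77, 2.69 and 2.75 in knockdown, and the other 5 stayed between 1.81 and 2.71. For all 3 genes the groups overlapped on every probe set. Differences ran from -0.045 to 0.028, none passed (limma adjusted p of 0.502 to 0.988), and the 95% intervals lay between -0.13 and 0.098. The arrays measure RNA only, and loss of the genes and silence of intact genes cannot be told apart from these values. DNA copy number was not analysed here.

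**Figure D2:**
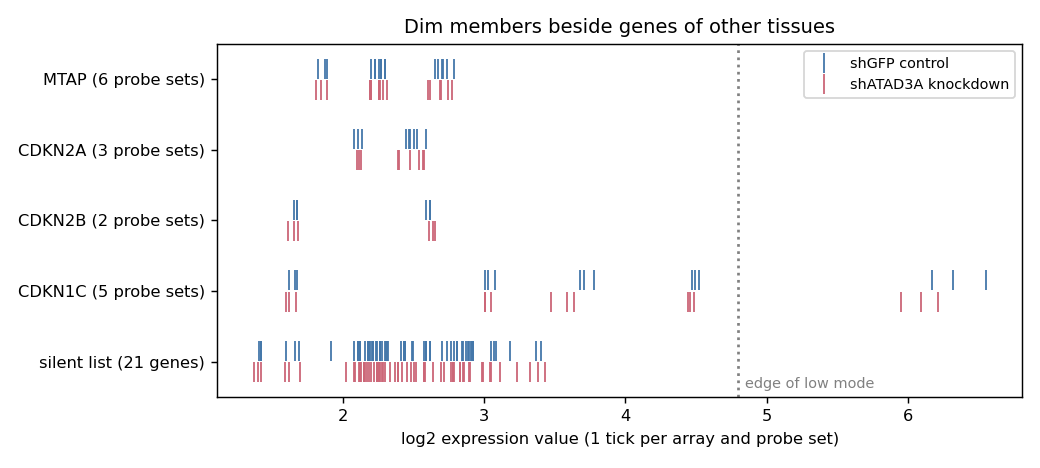
Log2 expression values (horizontal axis) of every probe set of MTAP, CDKN2A, CDKN2B and CDKN1C and of the silent list's 21 genes (vertical axis), with 1 tick per array, control in blue and knockdown in red. The ticks of MTAP, CDKN2A and CDKN2B lie between 1.61 and 2.78, within the silent range of 1.37 to 3.43, while 1 CDKN1C probe set lies above the edge of the low mode at 4.80.

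Genes beside them in 9p21 were in the low mode as well. Following the gene order of the RefSeq table, the nearest measured gene on one side with signal on all arrays was MLLT3, a chromatin reader of elongation complexes, and on the other side TUSC1. Between them lay 25 measured genes, the 3 members and 22 others, and all 25 were in the low mode on all arrays. Many of the 22 are type I interferon genes, among them the interferon alpha genes, IFNB1, IFNW1 and IFNE. The interferon alpha genes, IFNB1 and IFNW1 are transcribed mainly after viral infection. The others included CDKN2B-AS1 (the antisense RNA ANRIL, 2.63 in control and 2.62 in knockdown), MIR31HG (the host transcript of miR-31), DMRTA1 and ELAVL2. FOCAD and KLHL9, genes known to be active in many tissues, read 3.58 and 3.37 in control and 3.48 and 3.39 in knockdown.

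On either side of that stretch some genes had signal and others, such as SLC24A2, LRRC19, TEK and LINGO2, were again in the low mode. Of 40 measured genes in the 9p21 list, which includes genes within the stretch, 11 rose and 1 fell, and the median difference was 0.0073, beside -0.00084 over all genes, of which 33.6% were called, 19.7% higher and 13.9% lower. MLLT3 rose from 6.38 ± 0.37 to 8.65 ± 0.062 (SD, n = 3), PLIN2, which coats lipid droplets, rose by 1.14, RRAGA, a GTPase of amino acid sensing, by 0.85 and C9orf72 by 0.79. MOB3B rose by 3.80, out of the low mode in control, where it read 4.0, so its fold is imprecise. TUSC1 fell by 0.33 (adjusted p = 0.00751), and without knockdown replicate 1 the list held 2 genes that fell. DENND4C, PLAA, CAAP1, HAUS6 and RPS6 rose by 0.18 to 0.46, while 1 further probe set each of DENND4C, PLAA, CAAP1 and HAUS6 did not pass (differences of 0.17 to 0.29). ACER2 rose by 1.25 within the low mode, and IFT74 was above it with 0.32 (adjusted p = 0.0683).

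**Figure D3:**
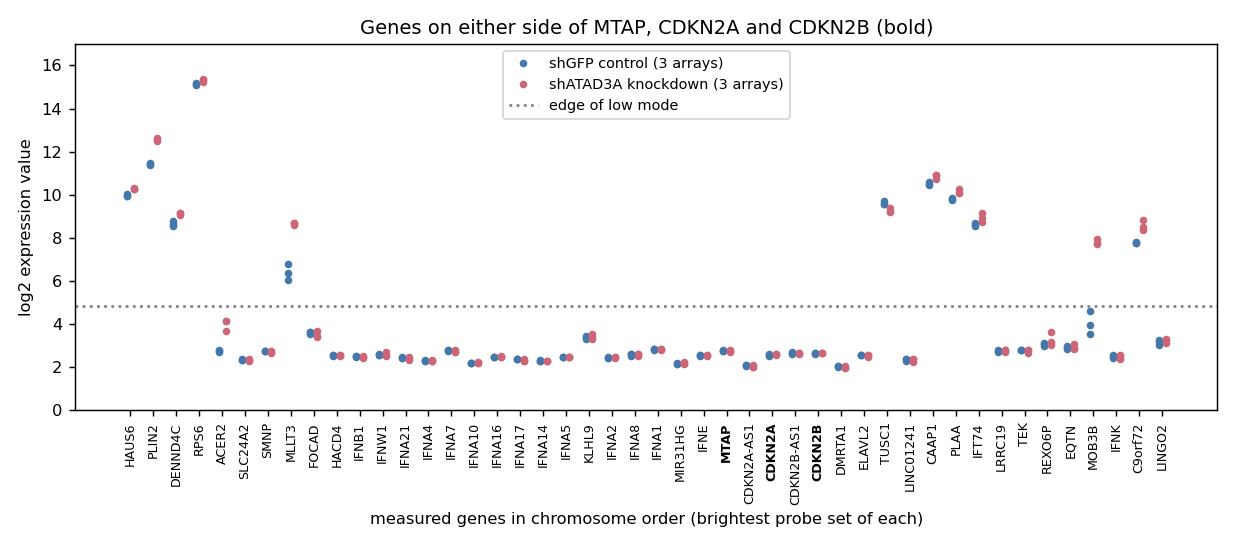
Log2 expression values (vertical axis) of measured genes in chromosome order around MTAP, CDKN2A and CDKN2B, by the brightest probe set of each gene; points are single arrays, control in blue and knockdown in red. The 25 genes between MLLT3 and TUSC1 lie under the dotted edge of the low mode at 4.80, and genes such as RPS6, PLIN2 and CAAP1 lie well above it.

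Over the whole set, 2 member probe sets rose, both of CDKN3, 2 fell, of CDKN1A and CDKN2D, and 18 did not pass. Of all probe sets tested, 22.4% were called, with 12.0% higher and 10.5% lower. The groups did not overlap for 6 of the 22 member probe sets, beside 33.2% of all probe sets (17.4% with knockdown higher and 15.8% lower). In the low mode lay 16 of the 22, beside 58.4% of all probe sets, and none of the 16 was called, where 1.46% of all probe sets in the low mode were. Of the 6 above it, 4 were called, beside 52.4% of all probe sets above the low mode on all arrays (28.3% higher and 24.1% lower), and the groups of 5 did not overlap, beside 67.1%. The share of members called was thus near the background of this comparison. CDKN1A was the member that changed by 2-fold or more; of all probe sets, 1.98% fell and 2.10% rose that far with a call.

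**Figure D4:**
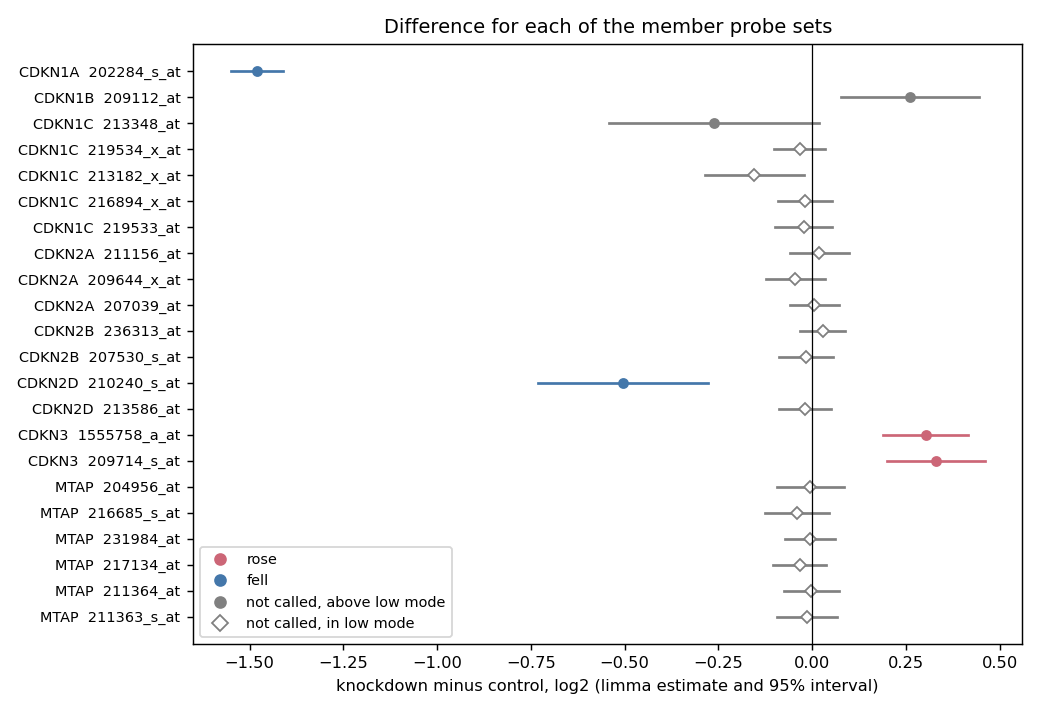
Knockdown minus control on the log2 scale (horizontal axis) for each of the 22 member probe sets (vertical axis), with the limma estimate and its 95% interval. CDKN1A lies at -1.48 and CDKN2D at -0.50, the CDKN3 probe sets lie at 0.30 and 0.33, and the open diamonds of probe sets in the low mode lie between -0.15 and 0.028.

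The median difference over the 50 nearest measured genes was -0.054 around CDKN1A, where 20 fell and 2 rose, and -0.041 around CDKN2D, where 12 fell and 1 rose. Around CDKN1B it was 0.015, with 18 that rose and 3 that fell, around CDKN1C -0.0020, with 6 that rose and 1 that fell, and around CDKN3 -0.0056, with 8 and 5. Over all genes 33.6% were called, 19.7% higher and 13.9% lower. Called neighbours were mostly lower around CDKN1A and CDKN2D and mostly higher around CDKN1B. Around CDKN1C both shares were below those over all genes. Most of its few called neighbours were higher, opposite in sign to the member's own difference of -0.26, which did not pass. Subtracting these medians left CDKN1A at -1.43, CDKN2D at -0.46 and CDKN3 at 0.31, all still called.

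The transcripts most like CDKN1A across the 6 arrays, by the root mean square distance between profiles centred on their control mean, were SMARCA1, KCNN4 and S100A2, at distances of 0.044, 0.050 and 0.052 log2 units. SMARCA1, a chromatin remodelling ATPase, had a difference of -1.43, KCNN4, a calcium-activated potassium channel, one of -1.47 and S100A2, a calcium-binding protein, one of -1.44. Their falls follow from the choice by likeness and are a description.

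Cyclins, CDKs and the enzymes and subunits that regulate CDKs moved in both directions. The list holds CDC25 phosphatases, WEE1, PKMYT1, CKS1B, CKS2 and MNAT1 beside cyclins and CDKs, so its count is not one of the inhibitors' own targets. Of 24 measured, 13 rose, 5 fell and 6 did not pass, with a median difference of 0.22, beside -0.00084 over all genes. Over all genes 19.7% rose and 13.9% fell, but all 24 lay above the low mode, where 52.4% of probe sets were called. That share counts every probe set of a gene, whereas the list counts use only the brightest. With genes below the median of mean expression left out, 6615 of 9888 genes were called. The same limit applies to the lists below. CDK4, a target of INK4 proteins, read 10.85 ± 0.059 in control and 11.84 ± 0.063 in knockdown (SD, n = 3), a rise of 0.99 (limma adjusted p = 2.960e-05). Of the other cyclins and CDKs in the list, CCNE1, CCNB2, CDK2, CDK7 and CCNC also rose. The CDK4 relative CDK6 fell by 0.36, and of its further probe sets 2 fell by 0.45 and fell by 0.46 while 1 did not pass (-0.20, adjusted p = 0.319). Of the D-type cyclins that activate both kinases, CCND2 was 8.19 ± 0.065 in control and 5.48 ± 0.067 in knockdown (SD, n = 3; adjusted p = 1.417e-06). CCND1 fell by 0.78, and CCND3 read 11.24 in control and 11.25 in knockdown (adjusted p = 0.977).

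Of the cyclin E and CDK2 arm, on which p21 and p27 act, CCNE1 rose by 1.06 and CDK2 by 0.31, while another CDK2 probe set missed the threshold (0.23, adjusted p = 0.131). CCNE2 showed a difference of -0.048 (adjusted p = 0.826). The phosphatases CDC25A and CDC25B, which switch CDKs on, rose by 0.95 and 0.85; another CDC25A probe set gave 0.39 (adjusted p = 0.0562). CCNA2 fell by 0.41 on its brightest probe set, and another gave -0.19 (adjusted p = 0.18). CCNA1 fell by 0.34. CDK1 and CCNB1, the mitotic pair, had differences of 0.013 and 0.056 that did not pass.

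Of 18 genes of pocket proteins and E2F factors, which lie downstream of these kinases, 2 rose, 2 fell and 14 did not pass. Their median difference was 0.012. Over all genes 33.6% were called, as were 52.4% of probe sets above the low mode, where 17 of the 18 lay. Without knockdown replicate 2, 4 rose, and with probe sets averaged per gene, 4 fell. E2F2 and LIN52 rose by 0.50 and 0.40, while E2F3 fell by 0.42 and E2F7 fell by 0.43. Another LIN52 probe set did not pass (0.21, adjusted p = 0.284). RB1, the retinoblastoma protein gene, read 11.58 ± 0.20 in control and 11.46 ± 0.14 in knockdown (SD, n = 3; limma adjusted p = 0.598).

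Of 16 genes for the turnover of CDK inhibitor proteins, 7 rose, 2 fell and 7 did not pass, with a median difference of 0.061. Over all genes 19.7% rose and 13.9% fell, but all 16 lay above the low mode, where 52.4% of probe sets were called. With genes below the median of mean expression left out, 6615 of 9888 genes were called. The count is thus not read as an excess of calls in this list. With control replicate 2 or 3, or knockdown replicate 1 or 3, left out, 1 gene of the list fell. SKP2, the ubiquitin ligase subunit that recognises p27 and p21, rose from 10.51 ± 0.052 to 11.42 ± 0.089 (SD, n = 3; limma adjusted p = 6.320e-05), and its other probe set rose by 1.28. The ubiquitin-conjugating enzyme CDC34 rose by 0.53, UBAC1, a subunit of a p27 ligase, by 0.37 and PCNA, on which p21 is degraded in S phase, by 0.33. CUL4B fell by 0.69, with differences of -1.15 to -1.14 on 3 other probe sets that also passed, and FBXW7, which targets cyclin E, fell by 0.25 with 2 other probe sets that missed the threshold. Protein levels were not measured on these arrays.

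**Figure D5:**
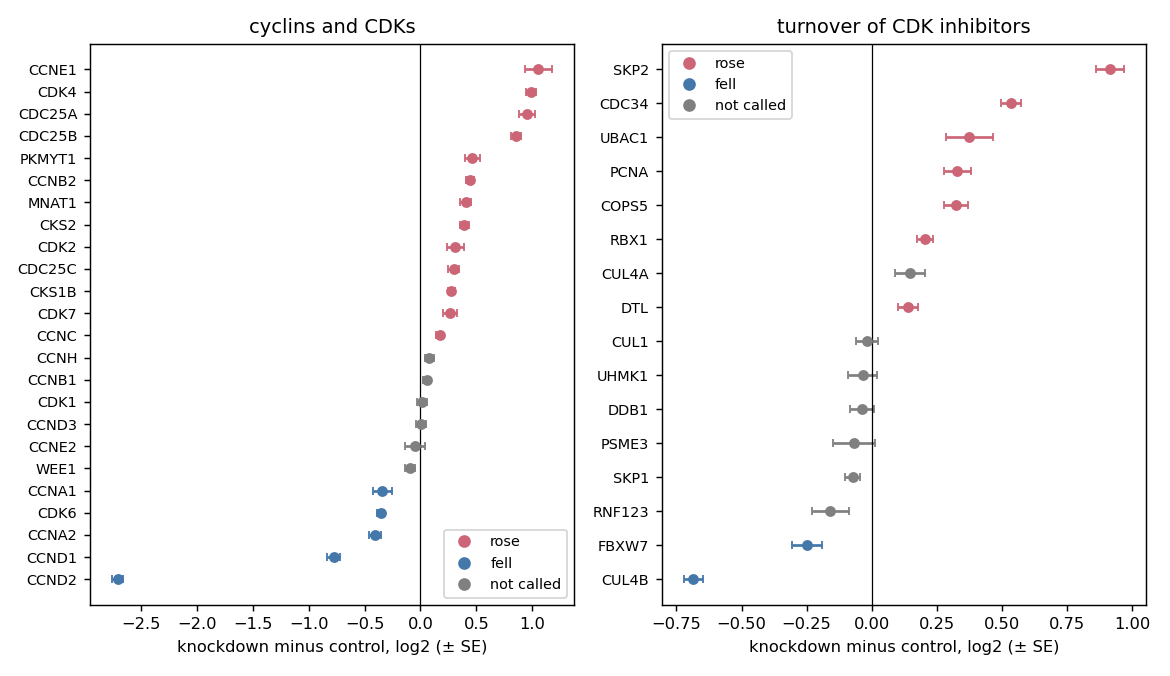
Knockdown minus control on the log2 scale with its SE (horizontal axes) for the brightest probe set of each gene (vertical axes), for cyclins and CDKs with their regulators (left) and for genes of CDK inhibitor turnover (right). CCND2 lies farthest left at -2.71 and CCNE1 farthest right at 1.06; SKP2 leads the turnover genes at 0.91.

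Known regulators of the inhibitor genes also went both ways. Of 26 measured of 33 listed, 7 rose, 8 fell and 11 did not pass, with a median difference of -0.053. The shares over all genes were 19.7% and 13.9%, but 22 of the 26 lay above the low mode, where 52.4% of probe sets were called. Without knockdown replicate 2, 5 fell. ID1, an inhibitor of helix-loop-helix factors that act through E boxes, rose from 12.13 ± 0.063 to 14.36 ± 0.061 (SD, n = 3; limma adjusted p = 2.143e-06). FOXO1, a forkhead factor that can activate CDKN1A and CDKN1B, rose by 0.98, KLF4 by 0.65 and MEN1, a cofactor for CDKN1B and CDKN2C transcription, by 0.53. ETS1 fell by 0.86, while another ETS1 probe set gave -0.060 (adjusted p = 0.298). SMAD3, which carries transforming growth factor signals to CDKN1A and CDKN2B, fell by 0.47 and MDM4 fell by 0.40; 1 other probe set of each did not pass (-0.22 and 0.11). MYC, a repressor of CDKN1A and CDKN2B, fell by 0.39.

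Other p53 target genes moved in both directions. Of 25 measured, 10 rose, 5 fell and 10 did not pass, with a median difference of 0.12. The shares over all genes were 19.7% and 13.9%, but 24 of the 25 lay above the low mode, where 52.4% of probe sets were called. The growth factor family member GDF15 rose by 1.85, the phosphatase TIGAR by 1.12, SFN (14-3-3 sigma, a cell cycle brake) by 0.99 and the nuclease AEN by 0.82. MDM2, the p53 ligase, rose by 0.41. The death receptor TNFRSF10B fell by 0.94, TP53INP1 fell by 0.84, the DNA polymerase POLH fell by 0.51, the kinase PLK2 fell by 0.37 and the RNA-binding protein ZMAT3 fell by 0.27. Some further probe sets of MDM2, TNFRSF10B, POLH and ZMAT3 did not pass. Beside these, CDKN1A fell by 1.48.

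Genes of methionine salvage and polyamine metabolism, the pathway in which MTAP acts, were split. Of 22 measured, 8 rose, 8 fell and 6 did not pass, with a median difference of 0.080. The shares over all genes were 19.7% and 13.9%, but 21 of the 22 lay above the low mode, where 52.4% of probe sets were called. SMOX, spermine oxidase, rose by 0.82, SRM, spermidine synthase, by 0.56, and the arginine methyltransferase PRMT5, which methylthioadenosine inhibits, by 0.48, with 2 further probe sets that rose by 0.39 and 0.69. OAZ1, antizyme, rose by 0.33. SAT1, which acetylates polyamines for export, was 12.72 ± 0.046 in control and 11.61 ± 0.023 in knockdown (SD, n = 3; limma adjusted p = 6.092e-06), and MAT2B fell by 1.11. ODC1, the first enzyme of polyamine synthesis, fell by 0.69. MRI1 and ADI1, which act after MTAP in the salvage pathway, had differences of -0.58 and -0.57 and passed. The other salvage genes after MTAP were split: APIP had a difference of -0.16, ENOPH1 of 0.32 and GOT1 of 0.23, and all 3 passed. MTAP itself was in the low mode in both groups.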

How the data were processed

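Values are log2 intensities of 6 Affymetrix U133 Plus 2.0 arrays (250 ng RNA), deposited by the authors; the log2 scale was read from their range (0.826 to 16.6), and the sources used here do not give the normalization, summary method or detection calls. The submitters' processing notes list Partek with no release number. The medians of the arrays ran from 3.16 to 3.23. After 62 control probe sets were removed from 54675, a 2016 annotation of the platform gave 1 symbol to 41091, several to 1801 and none to 11721. No symbol needed updating against GRCh38.p14, whose table was used for names and gene order.

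Groups were compared with limma 3.58.1 in R 4.3.3 (lmFit, eBayes, two-sided, Benjamini-Hochberg, threshold 0.05) over all probe sets for the members and over 19775 genes, each by its brightest probe set, for gene lists. The edge of the low mode was the density minimum within a fixed window of values, at a bandwidth of 0.25. The limma fit alone, and no other step, was tried on simulated data with planted differences. The members and lists were chosen with earlier results of these data known. Genes named were all members and, from each list of pathway or 9p21 genes, at most the 4 largest rises and 4 largest falls called, any gene in a count of 5 or fewer and 9p21 genes above the low mode; others named were chosen after their values were seen. Alternatives covered normalization, dim filters, the variance prior, array weights, probe sets averaged per gene, neighbour medians, the replicate block and leaving out arrays. Correlations between arrays were 0.9986 to 0.9991 within groups.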

Additional observations from a re-analysis of the deposited data

How the results depend on the processing

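The calls of CDKN1A, CDKN2D and CDKN3 and the lack of a call for CDKN1C, CDKN2A, CDKN2B and MTAP held under every alternative run. CDKN1A ranged from -1.50 to -1.43, CDKN2D from -0.57 to -0.26 and the brightest CDKN3 probe set from 0.27 to 0.35. CDKN1B passed with the dimmer features left out (0.26 without those below the median, adjusted p = 0.0329, and with a milder filter on dim features, adjusted p = 0.0433), with a variance prior that follows intensity (0.26, adjusted p = 0.0341), in the fit of genes averaged over probe sets (0.26, adjusted p = 0.0324) and with the neighbour median removed (0.25, adjusted p = 0.0443). Apart from the changed variance prior, these fits test fewer features. CDKN1B did not pass with quantile normalization (limma adjusted p = 0.0795), arrays centred on their medians (adjusted p = 0.0666) or array weights (adjusted p = 0.0644). With the replicate block it did not pass either (adjusted p = 0.133), nor when any 1 array was left out (0.19 to 0.31, adjusted p of 0.0562 to 0.173). Differences near 0 changed sign: MTAP (-0.0056) read 0.00026 with arrays centred on their medians and -0.025 to 0.019 with 1 array left out (0.015 without control replicate 3, 0.019 without knockdown replicate 2), and CDKN2A (0.019) read -0.0065 averaged over its probe sets. Calls over all probe sets ranged from 10410 to 13328, and over genes from 5845 to 7017. Total list counts, alternatives added after seeing the data, stayed within 1.5 times of those reported, but some counts in 1 direction did not: E2F genes (4 rose without knockdown replicate 2, 4 fell with probe sets averaged), turnover genes (1 fell with any of 4 arrays left out), upstream regulators (5 fell without knockdown replicate 2) and 9p21 genes (2 fell without knockdown replicate 1). With the replicate number as a block, 10773 probe sets were called and 4 member probe sets. Same-numbered arrays deviated from their group means with correlations of -0.28, -0.18 and 0.063 across probe sets, beside -0.11 to 0.27 for other pairs. With 3 arrays in a group, these correlations cannot decide whether same-numbered arrays share a culture or a batch. All 11 probe sets of CDKN2A, CDKN2B and MTAP also lay under the 95th percentile of the silent genes, 3.16. Signal over background limits what can be said of the 16 dim probe sets.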
